A study of Mus musculus with 8 samples.

Results

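Cardiac muscle cells are joined end to end at the intercalated disc, and 10 genes of that structure were followed: the connexins Gja1, Gja5 and Gjc1, the desmosomal genes Dsp, Pkp2, Jup, Dsg2 and Dsc2, and the adherens junction genes Cdh2 and Ctnna3. They were chosen by symbol, and each matched 1 Ensembl gene among the 33105 in the deposited count table. All 10 passed the filter on low counts that left 16603 genes for testing. Hearts of C57BL/6J mice were compared between 4 libraries labelled MR, for mitral regurgitation made by a minimally invasive operation, and 4 libraries labelled Sham. MR loads the heart with extra volume, and the stated purpose of the study was to find signalling pathways and genes tied to the hypertrophy that follows. The age and sex of the mice, the time after the operation, the part of the heart taken and what the Sham procedure involved were not stated in the labels. They also do not say that each library came from its own animal, so a p-value here reflects variation among libraries, part of which may be technical.

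Several kinds of junction meet at the disc. Gap junctions are channels built of connexins that pass current from cell to cell. Desmosomes are rivets in which the cadherins desmoglein and desmocollin bind the plaque proteins plakoglobin and plakophilin, and desmoplakin ties the plaque to desmin filaments. Adherens junctions use N-cadherin and catenins to hold the actin of neighbouring sarcomeres together, and in mammalian heart they merge with desmosomes into a mixed junction. Inherited faults in desmosomal genes cause arrhythmogenic cardiomyopathy in people, and a loss or displacement of ventricular connexin is a known feature of failing hearts.

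Total counts were 42291511 to 58658094 in MR libraries and 43535272 to 46264464 in Sham libraries, so that 1 count equalled 0.0167 to 0.0237 CPM (the count scaled to the TMM-adjusted library total). Where no read was counted, up to 3 counts remain possible, which is 0.0502 to 0.0711 CPM, and such floors cover counting error only. They take each count as independent, and would be higher if both ends of a fragment were counted. When the libraries were set out by principal components of log2 CPM, Sham replicate 3 had a score of 7.2 on the first component, beside 12.6 to 22.8 in MR libraries and −32.4 to −15.7 in the other Sham libraries. The second component set apart MR replicate 2, at 19.7, and Sham replicate 1, at 31.2, with −19.3 to −0.4 in the remaining libraries. These 2 libraries were also the lowest in the mean log2 CPM of the 10 junction genes, at 6.62 in MR replicate 2 and 6.58 in Sham replicate 1, against 6.68 to 6.80 in the other MR libraries and 6.78 in the other Sham libraries. Across genes, the deviation of log2 CPM from its mean over the 8 libraries had a slope on exon length of −0.014 per doubling of length in MR replicate 2 and −0.068 in Sham replicate 1, and of −0.006 to 0.027 in the others. The part of length in the junction gene values was not tested beyond removing that trend.

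The transcripts of Dsp and Ctnna3, and those of Gja1 and Jup, varied together most closely among the members with a promoter in the RefSeq table (GRCm38.p6), and for that reason their promoters are shown. For Gja1 and Jup this came mainly from the Sham libraries. Of the 10 members, 5 had an entry there, and the fifth, Gja5, had its entry at a start inside the annotated gene. Each line gives the 250 bases before the RefSeq start, 5′ to 3′ on the strand of the gene. Capitals mark letters that match a motif on either strand: AGGTGT for T-box factors, TNAAGTG for NKX2-5, AGATAA for GATA factors, TGANTCA for AP-1, GGGCGG for the GC box, CCAAT for the CCAAT box and CACGTG for the E-box. No matched letters belonged to more than 1 of these motifs.
Dsp: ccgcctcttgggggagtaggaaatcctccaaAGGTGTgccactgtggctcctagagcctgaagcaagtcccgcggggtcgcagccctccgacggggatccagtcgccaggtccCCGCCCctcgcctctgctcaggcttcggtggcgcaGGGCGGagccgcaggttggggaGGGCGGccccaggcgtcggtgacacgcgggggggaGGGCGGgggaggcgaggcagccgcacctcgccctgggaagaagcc
Ctnna3: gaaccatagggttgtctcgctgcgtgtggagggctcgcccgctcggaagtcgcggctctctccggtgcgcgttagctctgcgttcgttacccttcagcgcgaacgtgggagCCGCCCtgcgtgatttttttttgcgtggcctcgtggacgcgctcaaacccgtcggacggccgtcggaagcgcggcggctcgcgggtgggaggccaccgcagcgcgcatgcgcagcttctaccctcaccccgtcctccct
Gja1: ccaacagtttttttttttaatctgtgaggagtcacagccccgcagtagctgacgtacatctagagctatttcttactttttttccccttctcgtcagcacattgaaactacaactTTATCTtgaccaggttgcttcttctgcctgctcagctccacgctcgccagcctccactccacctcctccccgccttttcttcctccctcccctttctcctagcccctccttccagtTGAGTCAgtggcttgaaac
Jup: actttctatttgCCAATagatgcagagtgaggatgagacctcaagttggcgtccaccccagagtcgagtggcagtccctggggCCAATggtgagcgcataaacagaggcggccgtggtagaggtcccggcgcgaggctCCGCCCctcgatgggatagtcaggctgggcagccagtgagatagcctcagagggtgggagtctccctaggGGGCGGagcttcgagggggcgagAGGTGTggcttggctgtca
The windows lie at chr13:38151044-38151293 for Dsp, chr10:63429848-63430097 for Ctnna3, chr10:56377050-56377299 for Gja1 (all plus strand) and chr11:100397791-100398040 for Jup (minus strand). Dsp held 4 GC boxes and 1 T-box match, and 72.4% of its bases were G or C. Ctnna3 has 3 RefSeq starts, and the window shown, at the start of the annotated gene, held 1 GC box at a G and C content of 67.6%. The windows of the other 2 starts, inside the gene, had 44.8% and 45.6%, no GC box, and a T-box match in the one with 45.6%. Jup held 2 GC boxes, 2 CCAAT boxes and 1 T-box match at 62.0%. Gja1 had neither box, with 1 GATA match and 1 AP-1 match ending 13 bases before the start, at 50%. Over 32817 RefSeq promoters of that length the median G and C content was 52.4%, and 32.7% held the GC box, 33.8% the CCAAT box, 11.8% the T-box letters, 10.1% the NKX2-5 letters, 9.99% the GATA letters, 6.75% the AP-1 letters and 6.02% the E-box. A match is a run of letters and not evidence of binding.

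None of the 10 junction genes passed the edgeR quasi-likelihood test at a false discovery rate of 0.05 over all genes. The lowest adjusted p was 0.101, for Cdh2. In that test 0.458% of all genes were called. Cdh2, which encodes N-cadherin, and Dsg2, the desmoglein of heart muscle, had the largest log2 fold changes (MR over Sham in every case), −0.26 and −0.33, or transcript levels 16.6% and 20.6% lower in MR hearts. Jup, plakoglobin, had the largest in the other direction at 0.19. At an unadjusted p under 0.05 there were 3 of the 10, where 15.1% of all genes lay: 2 lower in MR (Cdh2 and Dsg2; 7.29% of all genes) and 1 higher (Jup; 7.78%). Of the 10, 1 (Cdh2) had MR values that did not overlap the Sham values. This held for 8.09% of all genes, 3.91% lower in MR and 4.19% higher. Of the 10 log2 fold changes 5 were negative and 5 positive, with a median of 0.00, and the median of all genes tested was also 0.00. Within 2 standard errors of each estimate, all 10 lay between −0.54 and 0.34. In bulk tissue, fewer cells of a type and less RNA per cell cannot be told apart.

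**Figure D1:**
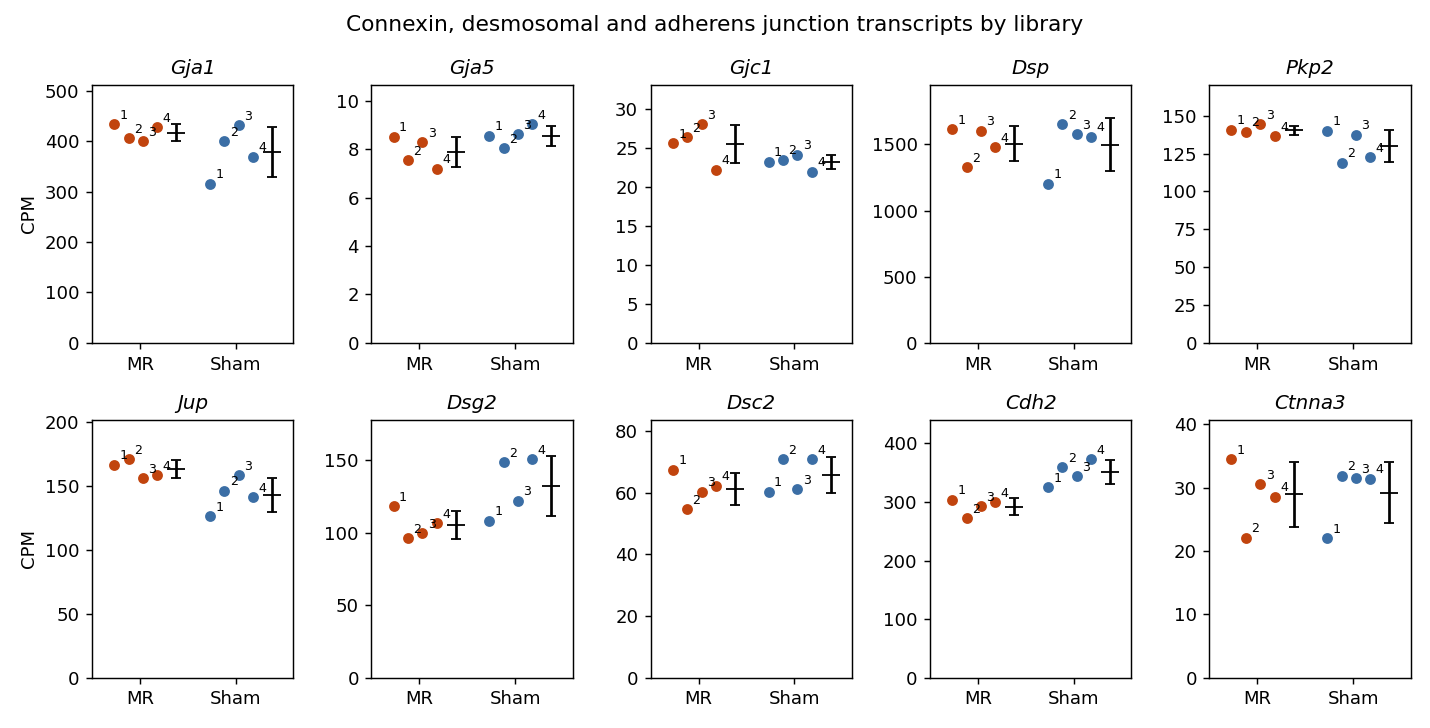
Transcript level in CPM (vertical axes, linear, from 0) of the 10 junction genes in 4 MR libraries (left, orange) and 4 Sham libraries (right, blue), with replicate numbers beside the points and black bars for the mean ± SD. The MR values of Cdh2 lie between 273 and 304 CPM, all below the Sham values of 326 to 373, and the groups overlap in the other 9 genes.

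**Figure D2:**
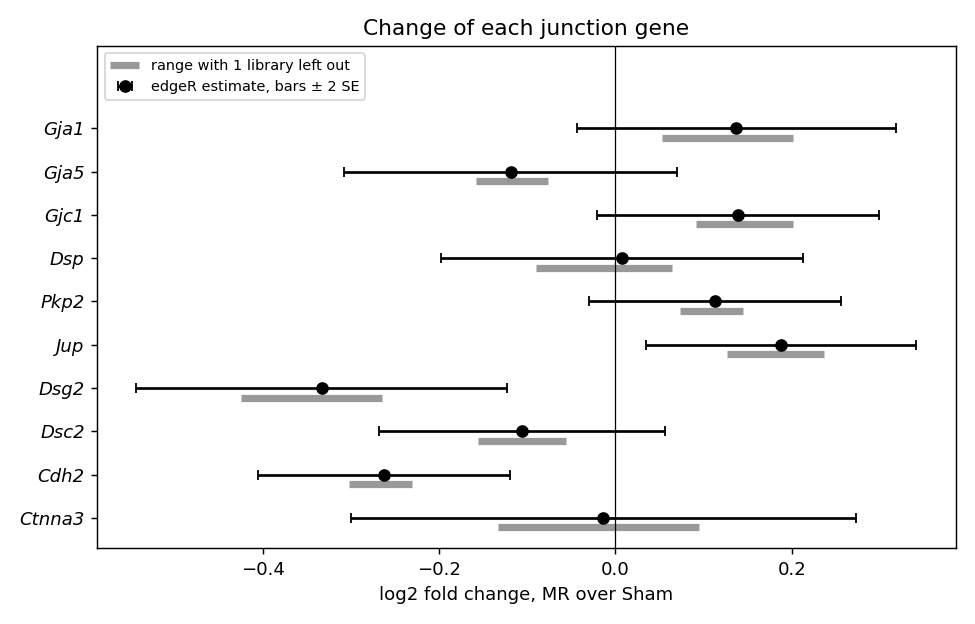
Log2 fold change of MR over Sham (horizontal axis) for each junction gene, as the edgeR estimate with bars of 2 standard errors, and in grey the range of the estimate when 1 of the 8 libraries was left out. Cdh2 at −0.26 and Dsg2 at −0.33 lie left of 0 with their bars, Jup at 0.19 lies right of 0, and the bars of the other 7 genes cross 0.

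Levels per kilobase of merged exon length set the genes in order. Dsp stood far above the rest at 156 ± 13.9 CPM per kilobase in MR and 155 ± 20.7 in Sham (SD, n = 4). It was followed in MR by Gja1 (40.6 ± 1.6), Cdh2 (36.2 ± 1.72), Pkp2 (26.2 ± 0.603), Jup (25.3 ± 1.10), Dsg2 (12.7 ± 1.17), Dsc2 (11.6 ± 1.0), Gjc1 (5.11 ± 0.489), Ctnna3 (4.0 ± 0.716) and Gja5 (1.37 ± 0.108). The order in Sham was the same but for Cdh2 (43.5 ± 2.53), which stood above Gja1 (37.0 ± 4.81). Neighbours in these orders whose ranges overlapped in both groups were Pkp2 and Jup, Dsg2 and Dsc2, and Gjc1 and Ctnna3. The ranges of Gja1 and Cdh2 overlapped in Sham and were apart in MR. Merged exon lengths count every annotated exon, so a gene with unused exons is placed too low.

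Among the connexins, Gja1 (ENSMUSG00000050953, protein-coding, chromosome 10, 56377330 to 56402513, GRCm38) encodes the main gap junction protein of working ventricular muscle. It was at 434, 406, 400 and 428 CPM in MR replicates 1 to 4, against 315, 400, 431 and 369 CPM in Sham replicates 1 to 4. The MR libraries lay close together at 417 ± 16.4 CPM, and the Sham libraries spread more widely at 379 ± 49.3 CPM (SD, n = 4). The groups overlapped, with MR replicate 1 above every Sham library. Its log2 fold change was 0.14 (SE 0.09, adjusted p = 0.509, edgeR), with an interval of 2 standard errors from −0.04 to 0.32. Without Sham replicate 1, the library with the lowest value, it was 0.05.

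Gjc1 (ENSMUSG00000034520, chromosome 11, 102799579 to 102819700), the connexin of the early heart and of the nodes, was at 25.6, 26.4, 28.1 and 22.2 CPM in MR replicates 1 to 4, against 23.2, 23.5, 24.1 and 22 CPM in Sham replicates 1 to 4. The values of 3 MR libraries were above all Sham libraries and MR replicate 4 was not. The log2 fold change was 0.14 (SE 0.08, adjusted p = 0.440).

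Gja5 (ENSMUSG00000057123, chromosome 3, 96904693 to 97077416) encodes the connexin of atrial muscle, of the fast conduction system and of arterial endothelium. It was at 8.52, 7.56, 8.30 and 7.20 CPM in MR replicates 1 to 4, against 8.57, 8.03, 8.63 and 9.03 CPM in Sham replicates 1 to 4. All 4 MR values were below 3 of the 4 Sham values, and the groups overlapped through Sham replicate 2. The log2 fold change was −0.12 (SE 0.09, adjusted p = 0.599). Its exons share 165 bases with Gpr89 on the other strand. The strand setting of the counting was not stated in the labels, so reads there could belong to either gene.

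Markers of the cells that use Gja5 stood as follows. None of the 7 tested of 9 atrial markers passed, and their summed level was 61.0 to 63.0 CPM in MR and 56.1 to 68.4 CPM in Sham. The most abundant of them, Kcna5, Nr2f2 and Stard10, at 21.2, 12.6 and 10.2 CPM in MR and 25.1, 12.9 and 11.7 CPM in Sham, are not confined to atria. The defining atrial genes, picked from the list after their values were seen, were scarce. Myl7, the atrial myosin light chain, was at 3.38 ± 1.25 CPM in MR and 2.10 ± 1.97 CPM in Sham, and Sln, sarcolipin, at 0.611 ± 0.195 CPM in MR and 0.389 ± 0.447 CPM in Sham (SD, n = 4). Myl4 was at 5.80 ± 1.81 CPM in MR and 3.37 ± 2.78 CPM in Sham. Among Sham libraries, Myl7, Sln and Myl4 were highest in replicate 1, at 4.90, 1.02 and 7.48 CPM. Dkk3 and Dhrs9, also on the list, were highest in Sham replicate 4, at 9.07 and 0.346 CPM. Bmp10, made by atrial muscle, had 0, 2, 0 and 6 counts in MR replicates 1 to 4 and 0 counts in every Sham library. Myl2, the ventricular light chain, was at 5685 CPM in MR and 6998 CPM in Sham. Conduction system markers summed to 52.8 to 66.2 CPM in MR and 54.6 to 66.5 CPM in Sham, with 0 of 8 tested past the threshold, and Cacna1g, Etv1 and Hcn4 the most abundant. Arterial endothelial markers summed to 347 to 401 CPM in MR and 369 to 407 CPM in Sham, with 0 of 9 past the threshold. Their part in the Gja5 value was not tested.

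In the desmosome, Dsg2 (ENSMUSG00000044393, chromosome 18, 20558074 to 20604521) encodes the desmoglein of heart muscle. It was at 118, 96.3, 99.8 and 106 CPM in MR replicates 1 to 4, against 108, 149, 122 and 151 CPM in Sham replicates 1 to 4. Sham replicate 1 was within the MR range and MR replicate 1 was above it, so that the groups overlapped there. The log2 fold change was −0.33 (SE 0.11, adjusted p = 0.151, edgeR). It passed the threshold without Sham replicate 1 (log2 fold change −0.42, adjusted p = 0.0488, 0.551% of all genes called), in limma-voom with quality weights (adjusted p = 0.0477, 2.58% called) and with no filter on low counts (adjusted p = 0.00277, 3.06% called). DESeq2 gave an adjusted p of 0.0675. Its exons share 330 bases with the antisense gene Gm16090.

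Dsc2 (ENSMUSG00000024331, chromosome 18, 20030633 to 20059554), the desmocollin that pairs with Dsg2, was at 67.4, 54.6, 60.3 and 62.2 CPM in MR replicates 1 to 4, against 60.3, 70.8, 61.2 and 70.9 CPM in Sham replicates 1 to 4. The groups overlapped, and the log2 fold change was −0.11 (SE 0.08, adjusted p = 0.583). Both desmosomal cadherins thus had negative estimates, and that of Dsg2 was the larger in size.

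The plaque genes Jup and Pkp2 had positive estimates, and 0 of the 5 desmosomal genes passed the main test. Jup (ENSMUSG00000001552, chromosome 11, 100368958 to 100397763), which encodes plakoglobin, a plaque protein of both desmosomes and adherens junctions, was at 166, 171, 156 and 158 CPM in MR replicates 1 to 4, against 126, 146, 158 and 141 CPM in Sham replicates 1 to 4. Only Sham replicate 3 reached the MR range, and the log2 fold change was 0.19 (SE 0.08, adjusted p = 0.264, edgeR). Pkp2 (ENSMUSG00000041957, chromosome 16, 16213318 to 16272712), plakophilin 2, was at 141, 139, 144 and 137 CPM in MR replicates 1 to 4, against 140, 119, 137 and 122 CPM in Sham replicates 1 to 4. Sham replicates 1 and 3 lay within the MR range, and the log2 fold change was 0.11 (SE 0.07, adjusted p = 0.489).

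Dsp (ENSMUSG00000054889, chromosome 13, 38151294 to 38198577), which encodes desmoplakin, was at 1616, 1328, 1605 and 1478 CPM in MR replicates 1 to 4, against 1204, 1653, 1579 and 1558 CPM in Sham replicates 1 to 4. The lowest library of each group, MR replicate 2 and Sham replicate 1, made up most of the spread. The log2 fold change was 0.01 (SE 0.10, adjusted p = 0.984), between −0.20 and 0.21 within 2 standard errors. Without Sham replicate 1 it was −0.09. Its exons share 499 bases with Gm10129 on the other strand. Epithelia and mesothelium also have desmosomes, and their markers summed to 11.5 to 33.6 CPM in MR and 7.72 to 13.5 CPM in Sham, with 0 of 7 tested past the threshold, all 7 estimates positive and a median log2 fold change of 1.04. Their part in the Dsp value was not tested. The most abundant mesothelial and epithelial markers were Wt1, Upk3b and Msln, at 5.17, 5.74 and 3.24 CPM in MR and 4.57, 2.08 and 1.58 CPM in Sham. Their log2 fold changes were 0.18, 1.47 and 1.04 (adjusted p 0.632, 0.290 and 0.307, edgeR). Epcam, an epithelial adhesion molecule, had 0 counts in every MR library and 0, 0, 2 and 2 counts in Sham replicates 1 to 4. The epithelial cadherin Cdh1 had 2 counts in every MR library and 0, 0, 0 and 4 counts in Sham replicates 1 to 4.

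In the adherens junction, Cdh2 (ENSMUSG00000024304, chromosome 18, 16588877 to 16809246) encodes N-cadherin, the cadherin that holds heart muscle cells together. It was at 304, 273, 292 and 300 CPM in MR replicates 1 to 4, against 326, 359, 344 and 373 CPM in Sham replicates 1 to 4. All 4 MR libraries were below all 4 Sham libraries. The means were 292 ± 13.9 CPM in MR and 350 ± 20.4 CPM in Sham (SD, n = 4). On the log2 scale MR over Sham was −0.26 (SE 0.07), which edgeR gave an adjusted p = 0.101. It passed in DESeq2 (adjusted p = 0.00729, 3.98% of all genes called), in limma-voom with quality weights (adjusted p = 0.0334), with no filter (adjusted p = 0.0497) and with a trend in gene length removed (adjusted p = 0.031, 1.79% called). Over the 16 alternatives its log2 fold change ran from −0.31 to −0.22, with adjusted p-values from 0.00729 to 0.309, and without any 1 library it did not pass (0.0548 to 0.309).

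Ctnna3 (ENSMUSG00000060843, chromosome 10, 63430098 to 65003667) encodes alpha-T-catenin, which binds plakophilin 2 in the mixed junction. It was at 34.5, 22.1, 30.5 and 28.6 CPM in MR replicates 1 to 4, against 22.1, 31.9, 31.5 and 31.4 CPM in Sham replicates 1 to 4. As with Dsp, the low libraries were MR replicate 2 and Sham replicate 1. The log2 fold change was −0.01 (SE 0.14, adjusted p = 0.98). It was 0.10 without MR replicate 2 and −0.13 without Sham replicate 1.

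Markers of heart muscle cells stood beside the estimates for Cdh2 and Dsg2. The 9 ventricular markers summed to 42816 to 49329 CPM in MR and 47433 to 55319 CPM in Sham, and 0 of 9 passed the edgeR test, with 6 of 9 estimates negative and a median log2 fold change of −0.08. At an unadjusted edgeR p under 0.05, 4 of the 9 were lower in MR and 0 higher (7.29% and 7.78% of all genes). Without overlap of the groups, 2 were lower in MR (Myh6 and Myl2) and 1 was higher (3.91% and 4.19% of all genes). Among the most abundant, Myh6 and Myl2 were at −0.28 and −0.30 on the log2 scale of MR over Sham (adjusted p 0.163 and 0.129) and Actc1 at 0.18 (adjusted p = 0.455). Cells other than muscle also carry N-cadherin and Gja1. Fibroblast markers summed to 1722 to 1865 CPM in MR and 1686 to 1772 CPM in Sham. The most abundant, Gsn and Dcn, averaged 907 and 539 CPM in MR and 922 and 544 CPM in Sham. Past the edgeR threshold, 1 of the 8 (Col1a1, adjusted p = 0.0483) was higher in MR (0.241% of all genes). At an unadjusted edgeR p under 0.05, 4 of the 8 were higher in MR and 0 lower (7.78% and 7.29% of all genes). Without overlap, 2 were higher (Col1a1 and Mfap5) and 0 lower (4.19% and 3.91% of all genes). Markers of all endothelium summed to 812 to 865 CPM in MR and 681 to 838 CPM in Sham, those of smooth muscle and pericytes to 1465 to 1603 CPM in MR and 1302 to 1557 CPM in Sham, and those of myeloid cells to 264 to 287 CPM in MR and 247 to 273 CPM in Sham, with 0 of 8, 0 of 8 and 0 of 9 past the threshold. The myeloid markers differed among themselves: S100a8 and S100a9, abundant in neutrophils, were lower in MR without overlap, at 0.234 to 0.864 and 0.653 to 1.70 CPM in MR and 1.31 to 18.8 and 3.22 to 28.2 CPM in Sham (adjusted p 0.155 and 0.140). Lyz2 and Fcgr1, of macrophages and other myeloid cells, were higher without overlap, averaging 185 and 4.38 CPM in MR and 152 and 3.34 CPM in Sham (adjusted p 0.102 and 0.208). All 8 endothelial estimates were positive, with a median log2 fold change of 0.14. The part of these cells in the junction gene values was not tested.

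Ratios between members within a library do not depend on how libraries are scaled, and 8 of them were set between MR and Sham. The test was a two-sided exact permutation test over libraries, where 70 arrangements allow no p below 0.0286. In 3 of them the MR and Sham values did not overlap, and how often this holds for other pairs of genes was not counted. Gja1 over Cdh2 and Dsp over Cdh2, which are among them, take in the difference of Cdh2, whose groups did not overlap by itself. Relative to Cdh2, Gja1 had log2 count ratios of 0.51, 0.57, 0.45 and 0.51 in MR replicates 1 to 4, against −0.05, 0.16, 0.33 and −0.02 in Sham replicates 1 to 4. The difference was 0.41 (exact permutation p = 0.0286, adjusted over the 8 ratios 0.0762), higher in MR in 4 of 4 libraries. Per kilobase of merged exon length (10.257 for Gja1 and 8.066 for Cdh2), the Gja1 value was 1.12 times that of Cdh2 in MR and 0.846 times in Sham. These 2 values depend on the lengths used, so they do not tell which transcript was the more abundant. The difference between the groups does not depend on them.

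Dsp relative to Cdh2 was at 2.41, 2.28, 2.46 and 2.30 in MR replicates 1 to 4, against 1.89, 2.20, 2.20 and 2.06 in Sham replicates 1 to 4, a difference of 0.28 on the log2 scale. Dsc2 relative to Dsg2 was at −0.81, −0.82, −0.73 and −0.78 in MR replicates 1 to 4, against −0.85, −1.07, −0.997 and −1.09 in Sham replicates 1 to 4, a difference of 0.22. Both had an exact permutation p of 0.0286 and an adjusted p of 0.0762. None of the 8 ratios passed after adjustment, for which at least 5 would have had to reach the smallest p. With a library left out, the differences ran from 0.36 to 0.48 for Gja1 over Cdh2, from 0.21 to 0.31 for Dsp over Cdh2 and from 0.19 to 0.27 for Dsc2 over Dsg2.

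Ratios among the connexins overlapped between MR and Sham. Per kilobase, Gja5 was at 3.37% of Gja1 in MR and 4.06% in Sham, a log2 difference of −0.27 (exact permutation p = 0.114, adjusted p = 0.229). Gjc1 was at 12.5% of Gja1 in MR and 12.6% in Sham, a difference of −0.01 (exact permutation p = 0.971), with SDs of 0.19 in MR and 0.18 in Sham on the log2 scale. The percentages depend on the merged exon lengths, and the log2 differences do not. Relative to Dsp, Jup had a log2 difference of 0.18 and Pkp2 of 0.10, and Ctnna3 relative to Cdh2 had one of 0.25 (exact permutation adjusted p 0.229 to 0.620). Their groups overlapped in each case.

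**Figure D3:**
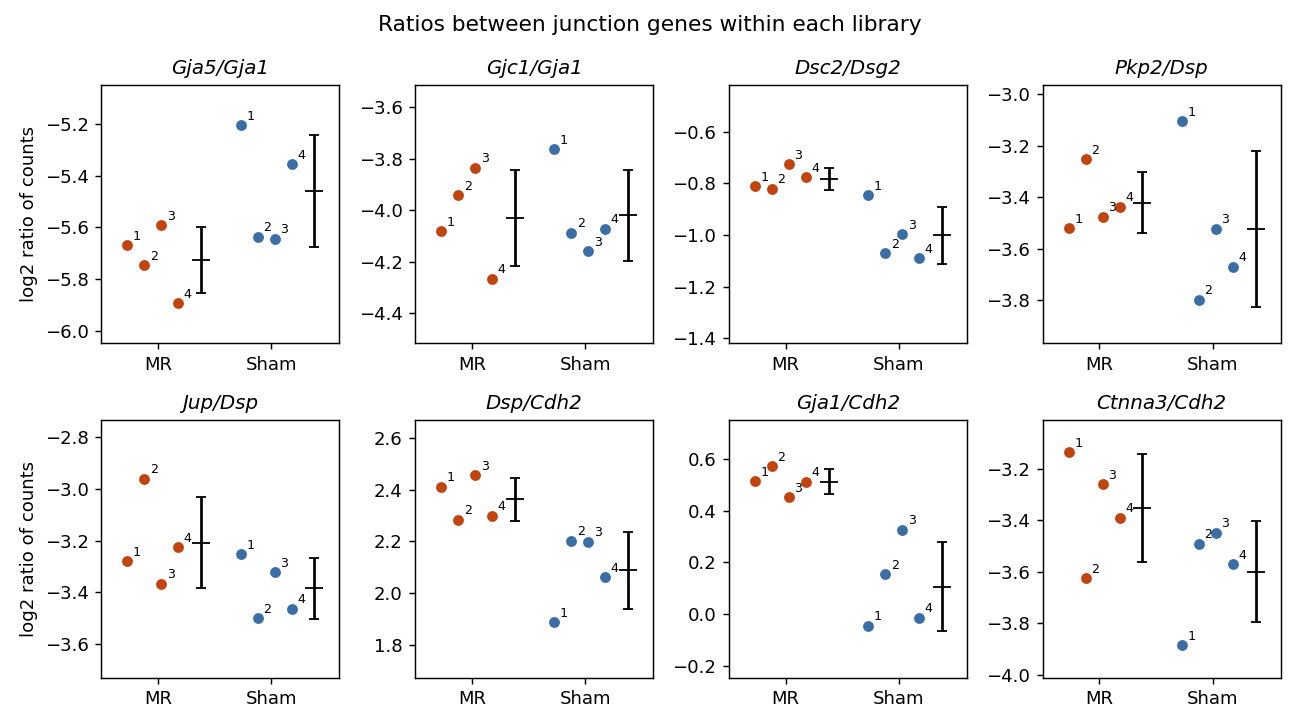
Log2 ratio of raw counts (vertical axes, each spanning 1 unit and not starting at 0) for 8 pairs of junction genes in 4 MR libraries (left, orange) and 4 Sham libraries (right, blue), with replicate numbers and black bars for the mean ± SD. The MR points lie above all Sham points for Dsc2/Dsg2, Dsp/Cdh2 and Gja1/Cdh2, by 0.22, 0.28 and 0.41 on average, and overlap them in the other 5.

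The members also differed in how they varied within groups. After the group mean was subtracted from the log2 CPM of each gene, Dsp and Ctnna3 varied together over the 8 libraries (Pearson r = 0.952), as did Dsg2 and Dsc2 (0.928), Dsc2 and Cdh2 (0.927), Dsg2 and Cdh2 (0.910) and Gja1 and Jup (0.876). Pkp2 ran the other way to Dsg2 (−0.821), Dsc2 (−0.671) and Cdh2 (−0.647), mainly through the Sham libraries. It deviated from its group mean by −0.039 to 0.041 in MR libraries and by −0.123 to 0.114 in Sham libraries. Of the 45 pairs, 31 had a positive value and 12 one above 0.7. These values describe the 8 libraries, whose points share a scaling factor and the 2 libraries that stood apart, and carry no test. MR replicate 2 lay 0.37 below its group mean for Ctnna3 and 0.18 below it for Dsp, and Sham replicate 1 lay 0.39 and 0.31 below. Gja1 and Jup were low in Sham replicate 1 and highest among Sham libraries in replicate 3, the one nearest to MR on the first component. In MR replicates 1 to 4 they did not move together. Gja1 deviated there by 0.058, −0.039, −0.058 and 0.039, and Jup by 0.034, 0.071, −0.063 and −0.041.

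**Figure D4:**
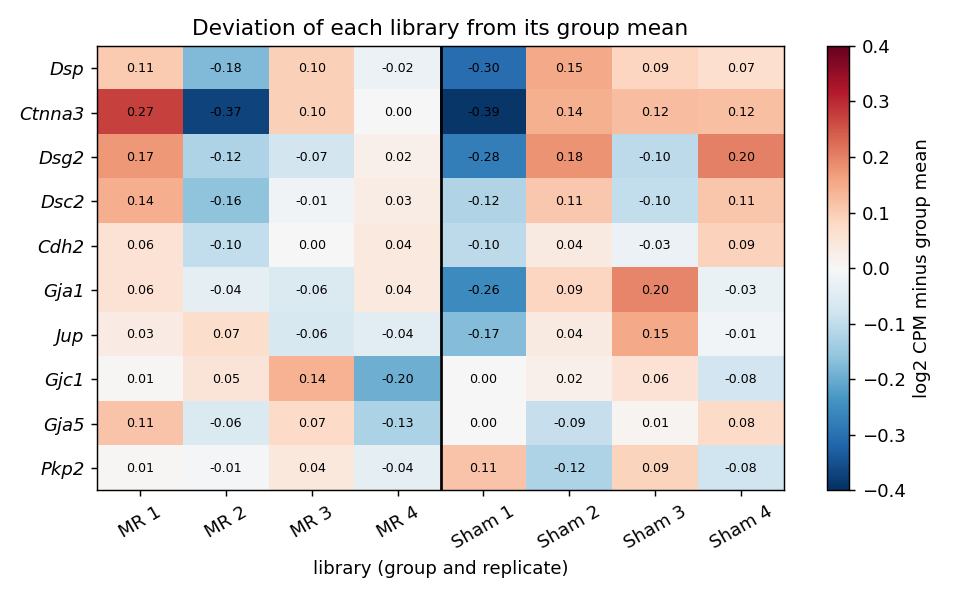
Deviation of log2 CPM from the group mean (colour and printed value) for the 10 junction genes (rows) in each MR library (left of the black line) and each Sham library (right). MR replicate 2 and Sham replicate 1 are low for Dsp, Ctnna3, Dsg2, Dsc2 and Cdh2, and Pkp2 is above its mean in Sham replicates 1 and 3 and below it in 2 and 4.

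Genes of the disc or related to its junctions, among them 15 listed regulators of connexin transcription, were read from 6 lists. These had 85 genes in the table, of which 68 were tested and 1 passed, Fgf13, which was lower in MR. In that direction 0.217% of all genes passed, and 0.241% in the other. Fgf13, an intracellular partner of the cardiac sodium channel, was at 52.1, 48.8, 47.3 and 46.4 CPM in MR replicates 1 to 4, against 71.5, 59.2, 59.1 and 75.2 CPM in Sham replicates 1 to 4, without overlap. It fell by 0.45 on the log2 scale (SE 0.09, adjusted p = 0.0439, edgeR). The call was lost without Sham replicate 2 or 4 and without any 1 MR library (adjusted p 0.0678 to 0.156), with library totals as the only scaling (0.0549, 0.422% of all genes called) and with a filter of 1 CPM (0.0504, 0.389% called). In these fits the log2 fold change stayed negative, between −0.50 and −0.38 without one of those 6 libraries, −0.40 with library totals and −0.44 with that filter. Few genes of any kind passed with those libraries left out: 0.0178% and 0.0356% without Sham replicates 2 and 4, and 0.095%, 0.0595%, 0.0833% and 0.244% without MR replicates 1 to 4.

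The list of 16 disc-associated channels and scaffolds that held Fgf13 had 0 genes that rose, 1 that fell and 15 that did not pass, with a median log2 fold change of 0.01. Scn4b, a beta subunit of sodium channels, was at 0.52 (adjusted p = 0.318), and Cxadr, a disc adhesion molecule that also serves as a virus receptor, at 0.17 (adjusted p = 0.314). Of 12 tested partners of cadherins and catenins 0 passed, with a median of 0.02. Pkp4, a plakophilin relative, was at −0.30 and the adhesion gene Nectin2 at −0.36, while Afdn, which links nectins to actin, was at 0.35 and Ctnnd1, the catenin that steadies cadherins at the membrane, at 0.22 (adjusted p 0.0895, 0.116, 0.092 and 0.308). Pkp4 was at 90.5 to 102 CPM in MR and 113 to 138 CPM in Sham, and Afdn at 96.9 to 106 CPM in MR and 69.2 to 94.4 CPM in Sham, neither with overlap.

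Of 10 other desmosomal genes 5 were tested and 0 passed, with all 5 log2 fold changes negative and a median of −0.24, where 49.6% of all genes were negative. Ppl, periplakin, was at 8.62, 6.98, 9.44 and 11.3 CPM in MR replicates 1 to 4, against 15.3, 16.6, 10.2 and 16.4 CPM in Sham replicates 1 to 4 (log2 fold change −0.69, SE 0.17, adjusted p = 0.0845, edgeR). Perp, a desmosomal membrane protein, was at −0.24 (adjusted p = 0.308), and Dsg3 and Evpl, at under 1 CPM on average in both groups, were at −0.47 and −0.19 (adjusted p 0.675 and 0.780). The epidermal genes Dsg1a, Dsc1, Dsc3, Pkp1 and Pkp3 were too low to test.

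The other connexin and pannexin genes numbered 17, of which 6 could be tested and 0 passed, with a median of −0.04. Gja3 was the most abundant of them at 15.2 ± 0.956 CPM in MR and 17.7 ± 1.47 CPM in Sham (SD, n = 4; log2 fold change −0.21, adjusted p = 0.248). Panx2, Panx1 and Gjc3 were at −0.71, 0.30 and −0.41 (adjusted p 0.209, 0.561 and 0.620), at mean levels of 0.394 to 2.48 CPM in MR and 0.519 to 2.02 CPM in Sham.

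Of 14 actin-binding and adaptor genes of the disc 0 passed, with a median of −0.01. Xirp2, a Xin repeat protein of the disc, was at 762, 727, 896 and 909 CPM in MR replicates 1 to 4, against 462, 650, 645 and 470 CPM in Sham replicates 1 to 4, without overlap (log2 fold change 0.57, SE 0.13, adjusted p = 0.0678, edgeR). Lmo7 and Myzap, 2 disc adaptors, were at −0.30 and −0.26 (adjusted p 0.146 and 0.149), and Sorbs2 at 0.14 (adjusted p = 0.382). Of 15 factors listed as regulators of connexin transcription 0 passed, with a median of 0.01. Tbx5, which activates Gja5 in mouse heart, was at 18 ± 0.978 CPM in MR and 23.4 ± 4.64 CPM in Sham (log2 fold change −0.37, adjusted p = 0.153). Irx3, Tbx3 and Tbx20 were at −0.27, −0.42 and 0.16 (adjusted p 0.181, 0.247 and 0.300). Without Sham replicate 3, 5.28% of all genes passed (497 higher in MR and 390 lower, of 16813). In that fit 9 of 69 tested list genes passed, and 0 of the 10 junction genes did. Afdn and Xirp2 were higher in MR, and Nectin2, Pkp4, Perp, Ppl, Fgf13, Myzap and Tbx5 lower (2.32% of all genes were called lower). With any other library left out, at most 1 list gene passed, Fgf13.

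**Figure D5:**
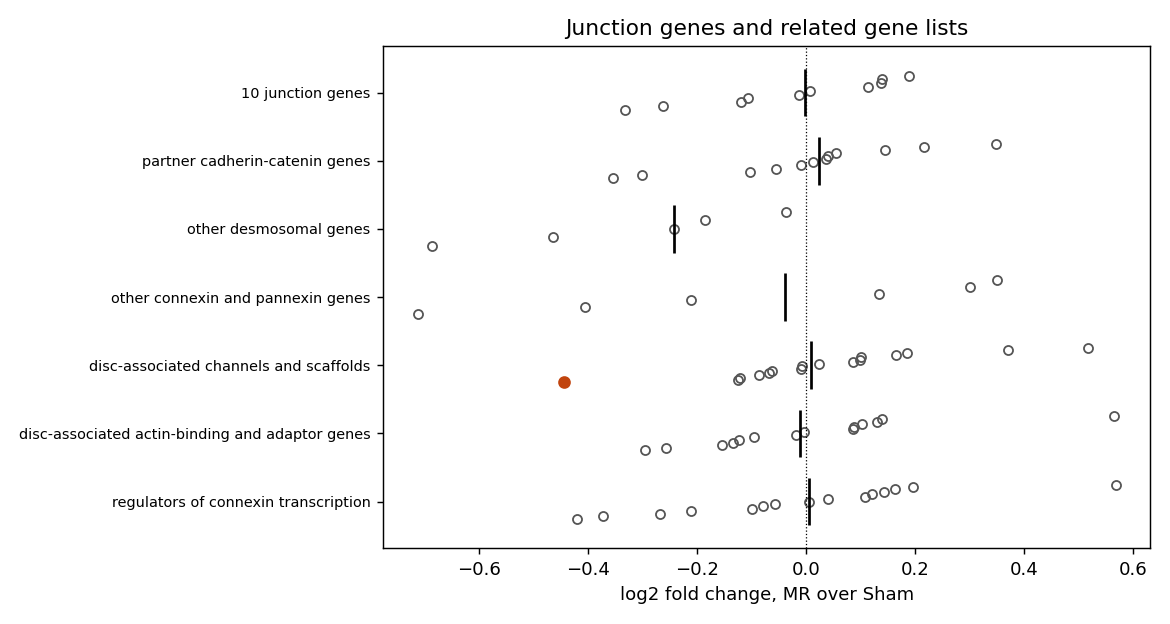
Log2 fold change of MR over Sham (horizontal axis) for tested genes of the junction set and of 6 related lists (rows), with a black line at the median of each row. Open circles did not pass the edgeR test, and the filled circle is Fgf13 at −0.45, the 1 gene that did.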

How the data were processed

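RNA of frozen heart tissue was extracted with TRIzol and made into libraries with an ABclonal mRNA kit, per the labels' protocols. The submitters' processing notes name HISAT2 2.0.5 and mm10 but not what each was used for. The authors deposited raw read counts per Ensembl gene, a column per library, without normalization. Which tool counted the reads, with which annotation and strand setting, is not given in the sources used here. Columns were matched to libraries by title and grouped by the treatment label.

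Symbols, positions and exon lengths came from GENCODE M21 (GRCm38), where 32350 of 33105 identifiers matched. Genes with 2 counts outnumbered genes with 1 count by 2.27 to 2.82 times per library, so both ends of a fragment may have been counted. In edgeR 4.0.16, low genes were removed by filterByExpr (at least 10 counts in enough libraries and 15 in all), and the rest were scaled by TMM and tested with the quasi-likelihood F test with robust moderation (R 4.3.3), with Benjamini-Hochberg adjustment over all 16603 genes tested and a threshold of 0.05. Every adjusted p of a gene comes from this test unless another tool is named. Standard errors are the log2 fold change divided by the square root of F. On simulated counts at these depths, 80% of genes changed 1.5-fold and 100% of those changed 2-fold were recovered over 16409 genes. Of 191 genes called there, 11 had not been changed. The simulation gave every gene the same spread (dispersion), changed only genes above 1 CPM and held no library that stood apart. These shares are therefore not the power in the real libraries. Ratios used exact permutation tests (scipy 1.17.1).

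Other settings tried were DESeq2 1.42.0, limma-voom with sample weights (limma 3.58.1), RLE scaling, scaling by library totals alone, a filter of 1 CPM in 4 libraries, no filtering, no robust moderation, removal of a trend with exon length, and leaving out each library. The members and lists were chosen with earlier results of these data known. Named genes are the 10 members, the 4 with the lowest p in each of 6 lists (1 of these is not reported here), and up to 3 markers per list by level, except Myl7, Sln, Bmp10, Col1a1, Epcam, Cdh1, S100a8, S100a9 and Fcgr1, which were named after their values were seen. Of the list genes, 3 (Arvcf, Gjb1 and Gjb6) matched no symbol.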

Additional observations from a re-analysis of the deposited data

Results flagged for a closer look

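Of 84 groups of 4 libraries checked over the named genes and the ratios, 5 had a library far from the other 3, where chance gives about 1 in 20. Among the members this was Ctnna3, at 22.1 CPM in Sham replicate 1 and 31.4 to 31.9 CPM in the other Sham libraries, and the cause was not tested. Pkp4 was at 138 CPM in Sham replicate 4 and 113 to 115 CPM in the others. Dsg3 was at 0.284 CPM in Sham replicate 2 and 0.450 to 0.464 CPM in the others. Panx2 was at 0.384 CPM in MR replicate 1 and 0.488 to 0.502 CPM in the others. Irx3 was at 14.0 CPM in MR replicate 3 and 15.8 to 16.2 CPM in the others.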

How the results depend on the processing

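Over the 16 alternatives, the log2 fold changes of 8 members (all but Dsp and Ctnna3) kept their direction. The number of members called was 0 in the main test and 2 with no filter, 1 in DESeq2, 2 in limma-voom and 1 with the length trend removed, all of them lower in MR (Cdh2, Dsg2 or both), and it was 0 to 1 with a library left out. Over all genes, 76 were called in the main test (0.458%), 936 with no filter (3.06%) and 660 in DESeq2 (3.98%). The number was 429 in limma-voom (2.58%), 297 with the length trend removed (1.79%) and 3 to 887 with a library left out (0.0178% to 5.28%). The share of calls higher in MR was 53 of 70 with library totals only and 112 of 297 with the length trend removed, against 40 of 76. Of the list genes tested, 1 of 68 was called in the main test and 0 of 68 with library totals only (0.422% of all genes). With the 1 CPM filter it was 0 of 61 (0.389% of all genes) and with no filter 10 of 84. DESeq2 called 9 of 68, limma-voom 5 of 68 and the fit with the length trend removed 4 of 68. With a library left out, 0 to 9 of 68 or 69 were called.

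The log2 fold change of Dsp was −0.0347 in limma-voom, −0.0459 with the length trend removed and −0.0902 to 0.0638 with a library left out, against 0.01. That of Ctnna3 was 0.028 with library totals only and −0.1331 to 0.095 with a library left out, against −0.01. The log2 difference of Gjc1 over Gja1 was −0.076 to 0.0754 with a library left out, against −0.01. The cause was not tested. With a library left out the smallest p of the ratio test is 0.0571, so those fits say nothing of its calls, and scaling ratios by length leaves differences as they are. No paired analysis was possible because the numbers in the titles are not shared between the groups. With 4 libraries a group, the standard errors of the members were 0.07 to 0.14 on the log2 scale.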
